A study of Mus musculus with 8 samples.

Results

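The respiratory chain genes of mouse skin were compared between Adam10 knockout and wild-type samples. Members were the genes whose annotation symbol begins with Ndufa, Ndufb, Ndufc, Ndufs, Ndufv, Uqcr, Cox4 to Cox8 or Atp5, or is Sdha, Sdhb, Sdhc or Sdhd, read from probe sets with exactly 1 symbol. This gave 89 of the 19935 named genes. They comprised 36 genes of complex I, 4 of complex II, 8 of complex III, 17 of complex IV and 17 of complex V, and 7 complex I assembly factors (Ndufaf1 to Ndufaf7) that the symbol pattern also takes. Complexes were assigned by symbol, so Ndufa4 and Ndufa4l2 are counted with complex I. All 89 were kept in every count, with no filter on low values unless one is named. A further 3 probe sets that carry several symbols, of Ndufb4 and Ndufs5 with their near-identical copies, were left out.

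The study hybridised RNA of 4 knockout and 4 wild-type skin samples, 1 array each, to Affymetrix Mouse Gene 1.0 arrays. The titles mark the knockouts as cKO, usually short for conditional knockout, and number them P67, P68, P69 and P55, against P57 to P60 for wild type, without saying what the number counts. The sources used here give no Cre driver, deleted exon, age, sex or strain. The labels name mouse skin in one field and primary skin cells in another. They do not say that each sample is a separate animal, so p-values measure the spread between these samples, which may be technical in part. Both groups hold samples of both sexes (Eif2s3y, below), so the arrays of a group cannot all come from a single animal.

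Mitochondria make most cellular ATP through protein complexes of the inner membrane. Complex I (NADH dehydrogenase) and complex II (succinate dehydrogenase) pass electrons to ubiquinone, complex III hands them to cytochrome c, complex IV (cytochrome c oxidase) gives them to oxygen, and the proton gradient that this builds drives complex V, the ATP synthase. Several subunits of complex IV exist as tissue isoforms, with one form used mainly in heart and skeletal muscle and another in most other tissues. Skin holds epidermis, dermis, fat and a thin sheet of skeletal muscle, which differ in their content of mitochondria. In such bulk RNA, fewer cells of a type and less RNA per cell cannot be told apart.

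Values are log2 of the authors' RMA intensity, and differences are knockout minus wild type. Adam10 averaged 6.92 ± 0.12 in the knockouts and 7.28 ± 0.15 in wild type (SD, n = 4 each), without overlap (limma adjusted p = 0.0641). Across all genes 1744 passed an adjusted p of 0.05 in limma (8.75%), with 6.41% of genes called higher and 2.34% called lower. Wild-type array 4 stood apart on the leading principal component, which held 49.98% of the variance: the knockout arrays lay at -24.91 to -18.22, wild-type arrays 1 to 3 at -2.54 to 17.52 and wild-type array 4 at 61.18. The Y-linked gene Eif2s3y was low (1.99 to 2.38) on knockout arrays 1 and 4 and wild-type array 1 and high (6.68 to 6.84) on the other 5, so both groups hold samples of both sexes. Results are given with and without wild-type array 4. In its absence 1997 genes passed, with 6.77% called higher and 3.25% called lower.

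With all 8 arrays few respiratory chain genes passed the test. Ndufa4l2 fell and Uqcrc1 rose, and the other 87 members did not pass in limma. These are 1.12% of members called lower and 1.12% called higher, below the shares of all genes and of the 3304 genes at least as bright as the lower quartile of the members (mean log2 of 6.62), of which 3.15% were called lower and 14.6% higher. An unadjusted p under 0.05 was found for 10 members (11.2%), against 25.1% of all genes and 40.3% of the bright genes. When wild-type array 4 was left out, Ndufa4, Uqcrc1, Ndufaf2 and Atp5g3 rose and Ndufa4l2 and Cox8b fell, which is 4.49% and 2.25% of members. These shares too were below those of all genes in that fit (6.77% higher and 3.25% lower) and of the bright genes (15% and 4.96%). When wild-type array 3 was left out as well, Ndufa4 rose and Ndufa4l2 fell, where 2.96% of all genes were called higher and 1.68% lower (4.64% in all).

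The median difference of the members was -0.11, with 23 above 0 and 66 below. Over all genes it was 0.0027, and over the bright genes 0.14. In the fit without wild-type array 4 the members' median was -0.016, with 40 above 0 and 49 below, against 0.0048 over all genes and 0.11 over the bright genes. The members' median with all arrays was -0.22 after quantile normalization and -0.26 after cyclic loess, and with muscle markers as a covariate 0.059. Without wild-type array 4 median centring gave 0.0079, quantile scaling -0.11 and cyclic loess -0.13, so its sign in that fit depended on the scaling. By complex, the medians with all arrays were -0.13 in complex I, -0.11 in II, -0.14 in III, -0.13 in IV and -0.10 in V, and without wild-type array 4 they were -0.023, 0.14, -0.013, -0.063 and 0.0098. In that fit quantile scaling gave -0.13, 0.029, -0.11, -0.17 and -0.060, cyclic loess -0.14, 0.0096, -0.13, -0.19 and -0.097, and median centring 0.00074, 0.16, 0.011, -0.039 and 0.034. Under these scalings the sign in complexes I, III and V varied, while complex II stayed above 0 and complex IV below.

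The groups did not overlap for 3 members higher in the knockout (Uqcrc1, Cox6b2 and Atp5g2) and 7 lower (Ndufa4l2, Uqcr11, Cox8b, Cox7b, Cox5a, Ndufb8 and Ndufa11), or 3.37% and 7.87% of members. Of all genes, 12.2% lay above without overlap and 5.86% below (18.1% in all), and of the bright genes 27.6% and 5.27%. Leaving out wild-type array 4 gave 19 and the same 7, or 21.3% and 7.87% of members. In that fit the shares were 15.4% and 8.88% of all genes (24.3% in all), and 33.5% and 10.7% of the bright genes. The median SD of a member was 0.11 over the knockouts, 0.26 over wild type and 0.077 over wild-type arrays 1 to 3. The 95% interval of the difference lay wholly between -0.5 and 0.5 (1.41-fold) for 50 of the 89 members with all arrays, and for 72 when wild-type array 4 was left out.

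**Figure D1:**
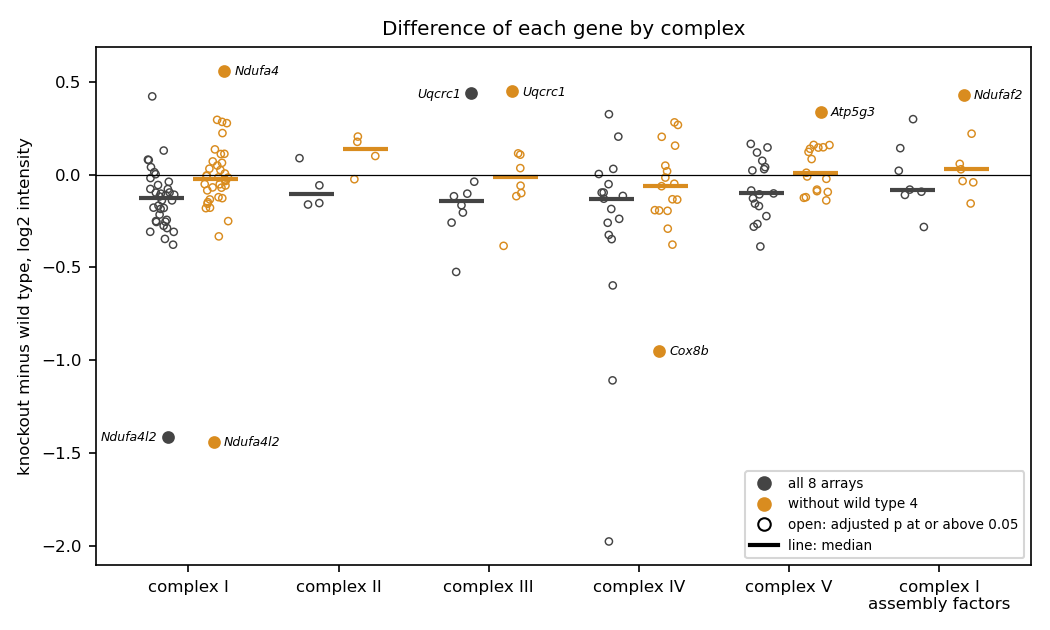
Knockout minus wild type (log2 intensity, y axis) for each of the 89 genes by complex, with all 8 arrays in dark grey and without wild-type array 4 in orange; filled points passed an adjusted p of 0.05 and lines mark medians. The medians of all 6 groups are below 0 with 8 arrays, and Ndufa4l2 lies at -1.41 with all arrays and -1.44 without wild-type array 4.

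Wild-type array 4 was high for respiratory chain genes in all 5 complexes. It was the highest of the 8 arrays for 74 of 89 members (83.1%), against 19.2% of all genes and 11.8% of the bright genes. It lay above the mean of wild-type arrays 1 to 3 for 86 members, all but Ndufa4l2, Cox6b2 and Cox8c, by a median of 0.51. The median was 0.51 in complex I, 0.72 in II, 0.56 in III, 0.46 in IV, 0.47 in V and 0.31 among the assembly factors. Relative to each gene's mean over 8 arrays, the members' median was -0.13 to 0.013 on the knockout arrays, -0.090 to -0.039 on wild-type arrays 1 to 3, ranges that overlap, and 0.44 on wild-type array 4.

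Markers of other tissues were high on the same array. The 24 skeletal muscle markers summed to 385 to 456 intensity units in the knockouts, 440 to 1638 on wild-type arrays 1 to 3 (1638 on array 3) and 10154 on wild-type array 4, where 23 of the 24 were at their highest. The 14 adipocyte markers summed to 247 to 264, 276 to 334 and 2513 on the same 3 sets of arrays, the 9 dermal fibroblast markers to 1141 to 1208, 876 to 2201 and 7588, and the 6 brown fat markers to 63.2 to 76.5, 66.5 to 100.9 and 239.9. The 11 keratinocyte markers ran the other way, at 27697 to 30228, 27059 to 28221 and 21616. With all arrays 6 of the 11 keratinocyte markers rose in the knockout (54.5%, against 6.41% of all genes and 14.6% of the bright genes) and 0 fell. Among the 6 were the basal integrins Itga6, by 1.33 (limma adjusted p = 0.00343), and Itgb4, by 1.24 (0.00479). The differences of 4 of the 11 lay below 0, both with all arrays and without wild-type array 4. Of the 6 brown fat markers Dio2, a thyroid hormone deiodinase, rose by 0.44 (limma adjusted p = 0.0283). Elovl3, a fatty acid elongase that skin glands also express, fell by 1.02 (0.0137). Each is 16.7% of the list, against 6.41% of all genes called higher and 2.34% lower. Both are dim, Dio2 lying below the array median on all 8 arrays and Elovl3 on 7. No muscle, adipocyte or dermal marker passed with all arrays. When wild-type array 4 was left out 5 keratinocyte markers rose (45.5%) and 1 fell (9.09%), 1 adipocyte marker fell (7.14%) and 1 dermal marker rose (11.1%). Of all genes 6.77% were called higher and 3.25% lower in that fit. There 3 keratinocyte markers lay below wild type without overlap (27.3%, against 8.88% of all genes) and 6 above (54.5%, against 15.4%). With all arrays the smallest p in the muscle, adipocyte and dermal lists belonged to the muscle actin gene Acta1 (-2.40, adjusted p = 0.152), the fat lipase gene Lipe (-0.52, 0.0767) and the collagen gene Col1a1 (-1.93, 0.143). No marker of these lists lay below the 25th percentile on all 8 arrays. The part of these tissues in the members' values was not tested.

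**Figure D2:**
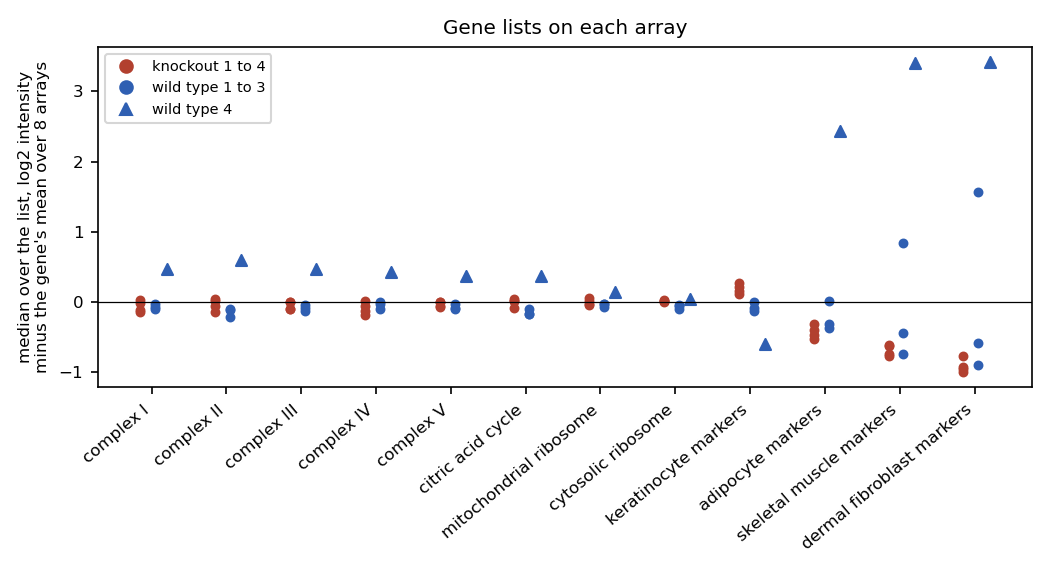
Median over each gene list (log2 intensity minus each gene's mean over 8 arrays, y axis) on every array, with knockouts in red, wild-type arrays 1 to 3 as blue circles and wild-type array 4 as a blue triangle. All 5 complexes are highest on wild-type array 4, which is also highest for muscle, adipocyte and dermal markers and lowest for keratinocyte markers.

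**Figure D3:**
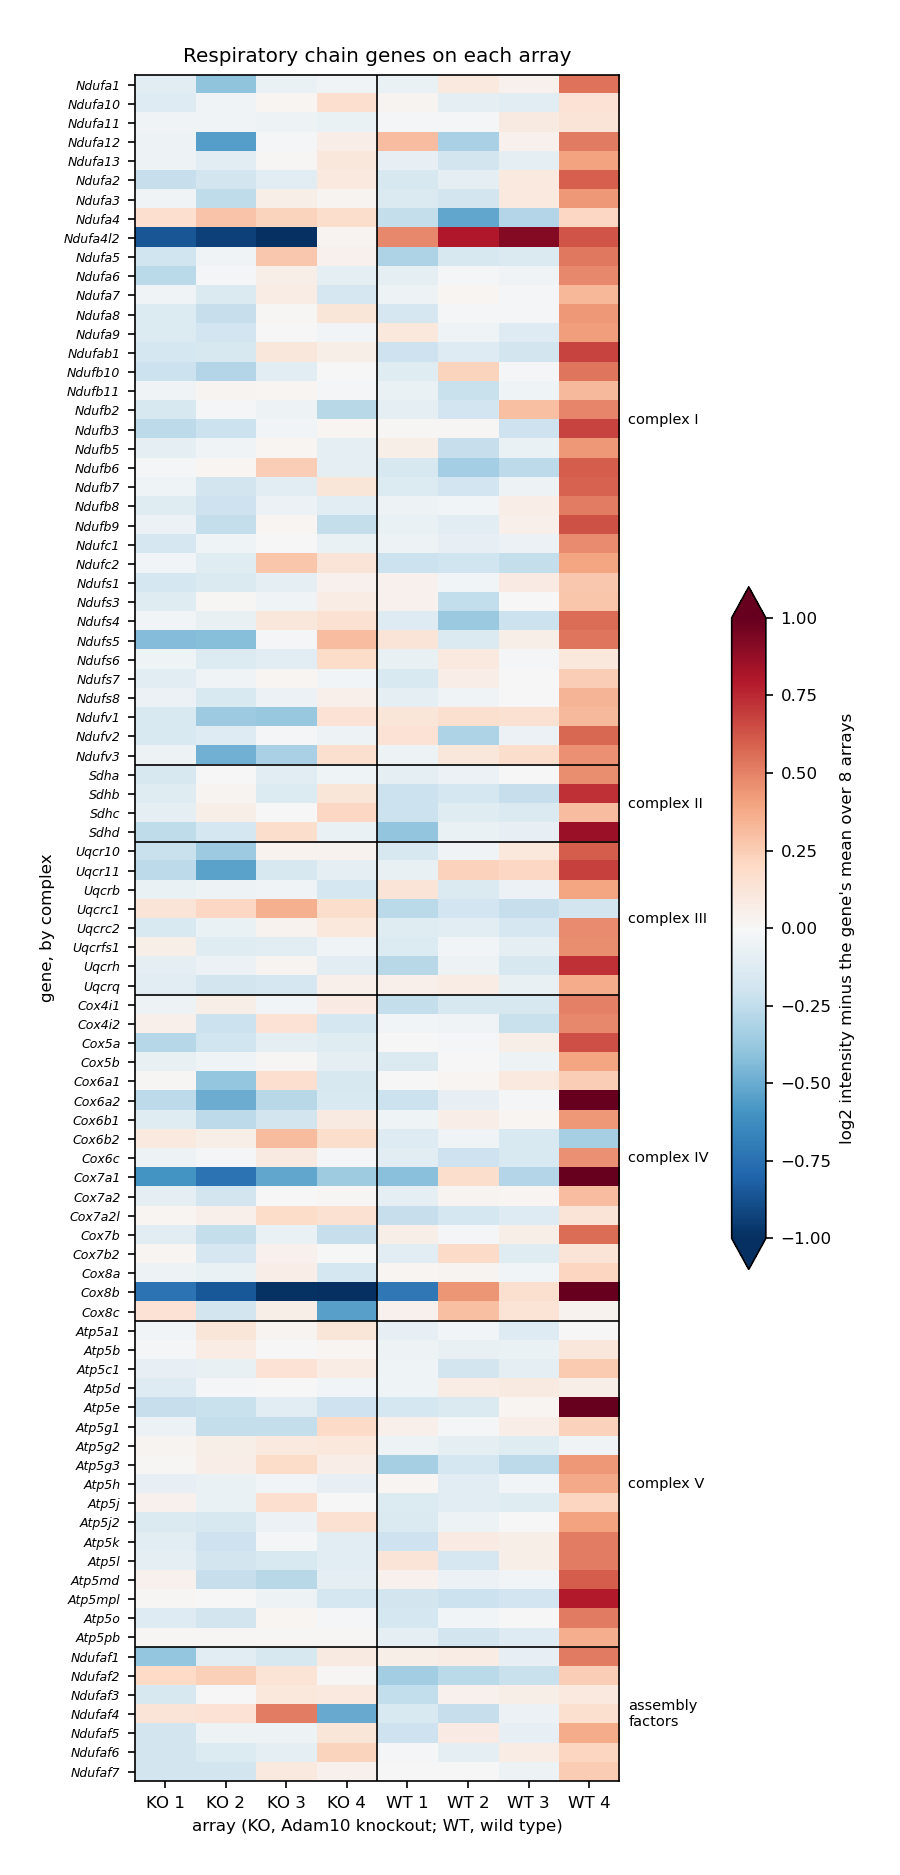
Log2 intensity minus the gene's mean over 8 arrays for the 89 genes (rows, by complex) on each array (columns, knockouts left and wild type right); red is above the mean, blue below, and the colours are capped at 1 and -1. The wild-type array 4 column is red for most rows, while Ndufa4l2 is deep blue on knockout arrays 1 to 3 and red on all wild-type arrays.

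Promoters are shown for Uqcrc1, which passed with all arrays, and for Ndufa4, Atp5g3 and Cox8b, which did not pass with all arrays but did when wild-type array 4 was left out, because they differ in short letter motifs of factors known for nuclear mitochondrial genes. Matches are in capitals. Ndufa4l2 was not matched in the promoter table. They come from RefSeq (GRCm38.p6) and run from 250 bases before to 50 after the start, on the gene's strand. Searched on both strands were GCGCATGCG (core of the NRF1 site), TCAAGGTCA (estrogen-related receptors) and CCGGAAGT (ETS factors such as GABP). Uqcrc1 holds the NRF1 core on both strands, overlapping itself, after the start, and Atp5g3 holds the reverse complement of the receptor letters before it. Ndufa4 and Cox8b hold none of the 3 in this window. Ndufaf2, which also passed when wild-type array 4 was left out, holds none either, and its promoter is not shown.
Ndufa4, GRCm38.p6 chr6:11907401-11907700, minus strand: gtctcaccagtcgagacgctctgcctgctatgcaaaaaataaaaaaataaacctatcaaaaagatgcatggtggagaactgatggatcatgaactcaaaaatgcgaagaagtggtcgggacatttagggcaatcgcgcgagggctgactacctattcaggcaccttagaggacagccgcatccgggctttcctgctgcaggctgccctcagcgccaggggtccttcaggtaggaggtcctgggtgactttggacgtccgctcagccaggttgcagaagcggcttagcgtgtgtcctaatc
Uqcrc1, GRCm38.p6 chr9:108936398-108936697, plus strand: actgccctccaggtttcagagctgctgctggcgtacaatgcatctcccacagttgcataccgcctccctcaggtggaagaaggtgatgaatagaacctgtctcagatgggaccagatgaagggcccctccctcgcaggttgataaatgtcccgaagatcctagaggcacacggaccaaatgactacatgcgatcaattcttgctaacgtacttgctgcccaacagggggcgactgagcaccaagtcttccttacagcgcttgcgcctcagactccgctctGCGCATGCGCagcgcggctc
Atp5g3, GRCm38.p6 chr2:73911277-73911576, minus strand: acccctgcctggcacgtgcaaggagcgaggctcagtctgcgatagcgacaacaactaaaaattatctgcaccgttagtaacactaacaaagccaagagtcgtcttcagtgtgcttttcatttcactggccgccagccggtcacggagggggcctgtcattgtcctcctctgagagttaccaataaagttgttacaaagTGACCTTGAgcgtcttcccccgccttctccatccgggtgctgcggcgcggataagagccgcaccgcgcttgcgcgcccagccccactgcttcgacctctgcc
Cox8b, GRCm38.p6 chr7:140900397-140900696, minus strand: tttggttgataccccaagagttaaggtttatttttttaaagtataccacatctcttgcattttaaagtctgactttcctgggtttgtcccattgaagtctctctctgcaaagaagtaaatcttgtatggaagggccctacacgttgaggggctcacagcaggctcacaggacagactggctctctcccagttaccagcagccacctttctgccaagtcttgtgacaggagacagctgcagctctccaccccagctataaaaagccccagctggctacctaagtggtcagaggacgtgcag

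Promoters were found for 73 of the 89 members. The NRF1 core was in 10 (13.7%), against 1.95% of the 27025 genes in the promoter table and 4.74% of the bright genes. The receptor letters were in 2 (2.74%, against 0.466% and 0.257%) and the ETS letters in 5 (6.85%, against 4.31% and 10.4%). The 16 members with any of them had a median difference of -0.12 with all arrays and 0.017 without wild-type array 4, and the 57 with none had -0.11 and -0.016. A match describes letters and is not a binding site.

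Among the 36 genes counted with complex I by symbol, Ndufa4l2 fell. It is a paralog of Ndufa4 that is known as a target of the hypoxia-inducible factor HIF-1 and lowers complex I activity. Its log2 intensity was 7.02, 6.95, 6.82 and 7.90 in the knockouts, against 8.36, 8.68, 8.79 and 8.50 in wild type. Every knockout value lay below every wild-type value, with knockout array 4 nearest to them. The difference was -1.41 (SE 0.22, 2.66-fold lower, limma adjusted p = 0.00536). It passed in each of the 8 fits that left out 1 array, with adjusted p from 0.000445 to 0.0255.

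Ndufa4 itself was first purified with complex I and is now counted as a subunit of complex IV. Its symbol places it with complex I here, and it rose when wild-type array 4 was left out. It measured 9.97, 10.09, 10.02 and 9.98 in the knockouts, against 9.56, 9.29, 9.51 and 10.01 in wild type. Only wild-type array 4 reached the knockout range. With all arrays the difference of 0.42 (SE 0.14) did not pass (limma adjusted p = 0.0952). In the fit without wild-type array 4 it was 0.56 (SE 0.10, adjusted p = 0.00816), and it passed there after quantile normalization too, at 0.45 (adjusted p = 0.018).

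**Figure D4:**
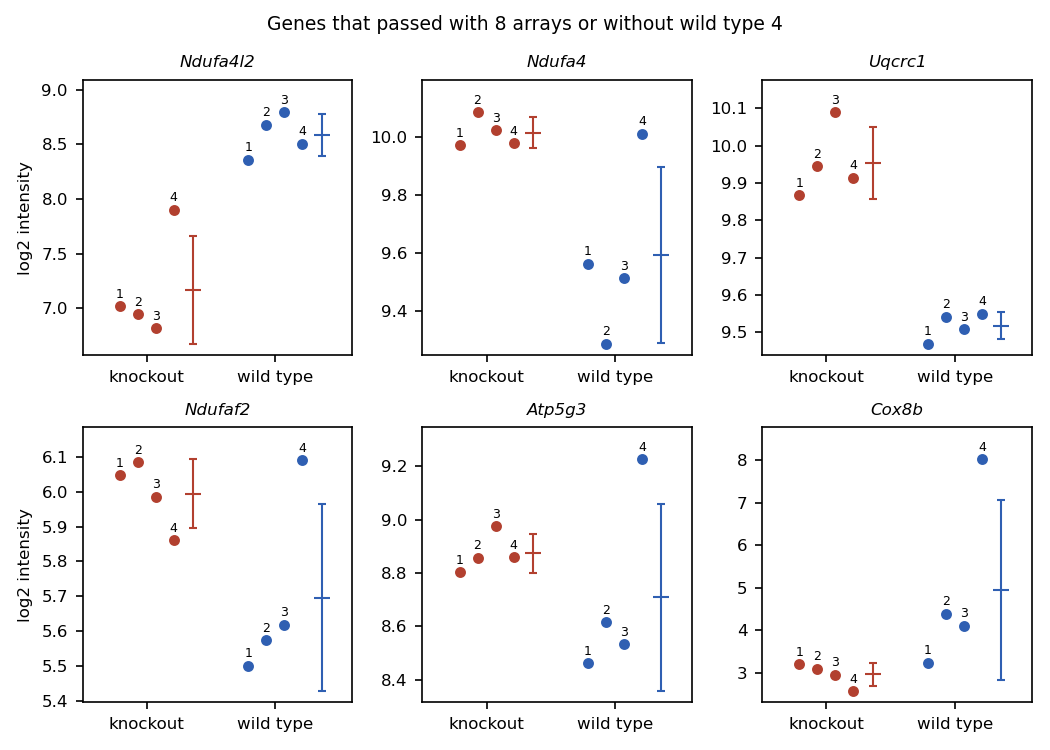
Log2 intensity on each array (y axes differ) for the 6 genes that passed with 8 arrays or without wild-type array 4; points carry the array number and bars give the mean and SD of 4 arrays. Ndufa4l2, Uqcrc1 and, by a narrow margin, Cox8b separate the groups on all 8 arrays. For Ndufa4, Ndufaf2, Atp5g3 and Cox8b wild-type array 4 stands above the other wild-type arrays.

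The other 34 complex I genes did not pass with all arrays or when wild-type array 4 was left out. Ndufv1, which carries the NADH and flavin site, measured 7.45, 7.23, 7.22 and 7.74 in the knockouts, against 7.71, 7.76, 7.75 and 7.92 in wild type. Knockout arrays 1 to 3 lay below wild type and knockout array 4 within it. The difference was -0.38 (SE 0.13, limma adjusted p = 0.0952). It passed after quantile normalization, after cyclic loess, with array weights and without knockout array 4 (-0.49, adjusted p = 0.0261). Ndufs1, the largest iron-sulfur subunit, differed by -0.18 with all arrays and -0.13 without wild-type array 4, and the iron-sulfur subunit Ndufs8 by -0.11 and -0.017. Ndufv1, Ndufs1 and Ndufs8 were chosen after their values were seen.

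Of the 7 assembly factors, Ndufaf2, a chaperone that binds late stages of complex I assembly, measured 6.05, 6.09, 5.99 and 5.86 in the knockouts, against 5.50, 5.57, 5.62 and 6.09 in wild type. Wild-type arrays 1 to 3 lay below all knockouts and wild-type array 4 just above the highest. The difference of 0.30 (SE 0.13, adjusted p = 0.199) did not pass with all arrays. It rose by 0.43 (SE 0.10, adjusted p = 0.0213) in the fit without wild-type array 4, but not there after quantile normalization (0.32, adjusted p = 0.068). Ndufaf1 had the lowest difference of the 7, at -0.28 (adjusted p = 0.266).

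Complex II is the only complex of the chain that is also an enzyme of the citric acid cycle, and its 4 genes did not pass with all arrays or in any alternative. Sdhb, the iron-sulfur subunit, measured 6.88, 7.03, 6.87 and 7.12 in the knockouts, against 6.79, 6.83, 6.77 and 7.73 in wild type. Wild-type arrays 1 to 3 lay below all knockouts and array 4 above them. It differed by -0.058 with all arrays (95% interval -0.51 to 0.39) and by 0.18 when wild-type array 4 was left out (-0.046 to 0.40). The flavoprotein Sdha differed by -0.15 and -0.025, and the membrane anchors Sdhc by 0.088 and 0.20 and Sdhd by -0.16 and 0.10 in the same pair of fits.

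In complex III Uqcrc1, a core protein of the part that faces the matrix, rose in the knockout. It measured 9.87, 9.94, 10.09 and 9.91 in the knockouts, against 9.47, 9.54, 9.51 and 9.55 in wild type. The groups were apart by more than the range of either, and wild-type array 4 was close to the other wild-type arrays. The difference was 0.44 (SE 0.088, 1.35-fold, limma adjusted p = 0.0155), and 0.45 (adjusted p = 0.0167) without wild-type array 4. It missed the threshold without knockout array 2 (adjusted p = 0.0553), knockout array 3 (0.0511), wild-type array 3 (0.0514) or wild-type arrays 3 and 4 (0.0643). It also missed it after quantile normalization (adjusted p = 0.0699) and cyclic loess (0.0854).

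Uqcr11, a small subunit of the same complex, had the lowest difference there. It measured 6.60, 6.33, 6.70 and 6.77 in the knockouts, against 6.79, 7.09, 7.07 and 7.54 in wild type. The groups did not overlap, with knockout array 4 just below wild-type array 1. The difference of -0.52 (SE 0.16) did not pass with all arrays (limma adjusted p = 0.0721), and its other probe set gave -0.51. It passed without wild-type array 1 (adjusted p = 0.0352), with the filter on dim genes, with the mean of probe sets, with array weights, and after cyclic loess without wild-type array 4.

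In complex IV the muscle isoforms stood out by their level on wild-type array 4. With all arrays Cox8b had the largest difference of all members, and when that array was left out the difference of Ndufa4l2 was larger. Cox8b, the muscle form of subunit 8, measured 3.21, 3.10, 2.96 and 2.58 in the knockouts, against 3.24, 4.39, 4.11 and 8.02 in wild type. All knockouts lay below wild type, by a narrow margin to wild-type array 1. The difference of -1.97 (SE 0.82) did not pass with all arrays (limma adjusted p = 0.165). When wild-type array 4 was left out it fell by 0.95 (SE 0.24, adjusted p = 0.0356). Cox8b was dim on 5 of the 8 arrays: all knockouts and wild-type array 1 lay below their array's median. Without wild-type arrays 3 and 4 the difference was -0.85 (adjusted p = 0.123), and with the muscle marker mean as a covariate -0.39 (adjusted p = 0.58). The adipocyte and brown fat marker sums were also highest on wild-type array 4, and neither list was fitted as a covariate.

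Cox7a1, the muscle form of subunit 7a, measured 3.14, 3.00, 3.22 and 3.39 in the knockouts, against 3.32, 3.91, 3.45 and 6.49 in wild type. Cox6a2, the muscle form of subunit 6a, measured 4.86, 4.62, 4.84 and 4.97 in the knockouts, against 4.91, 5.04, 5.11 and 6.63 in wild type. For both genes the groups overlapped and wild-type array 4 was far above the rest, and the differences of -1.11 and -0.60 did not pass (limma adjusted p = 0.262 and 0.28). Wild-type array 4 exceeded the mean of wild-type arrays 1 to 3 by 4.10 for Cox8b, 2.92 for Cox7a1 and 1.61 for Cox6a2, against 0.21, 0.32 and 0.20 for the widely expressed Cox8a, Cox7a2 and Cox6a1. These widely expressed forms differed between genotypes by -0.12, -0.13 and -0.19 with all arrays and by -0.063, -0.049 and -0.13 when wild-type array 4 was left out.

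**Figure D5:**
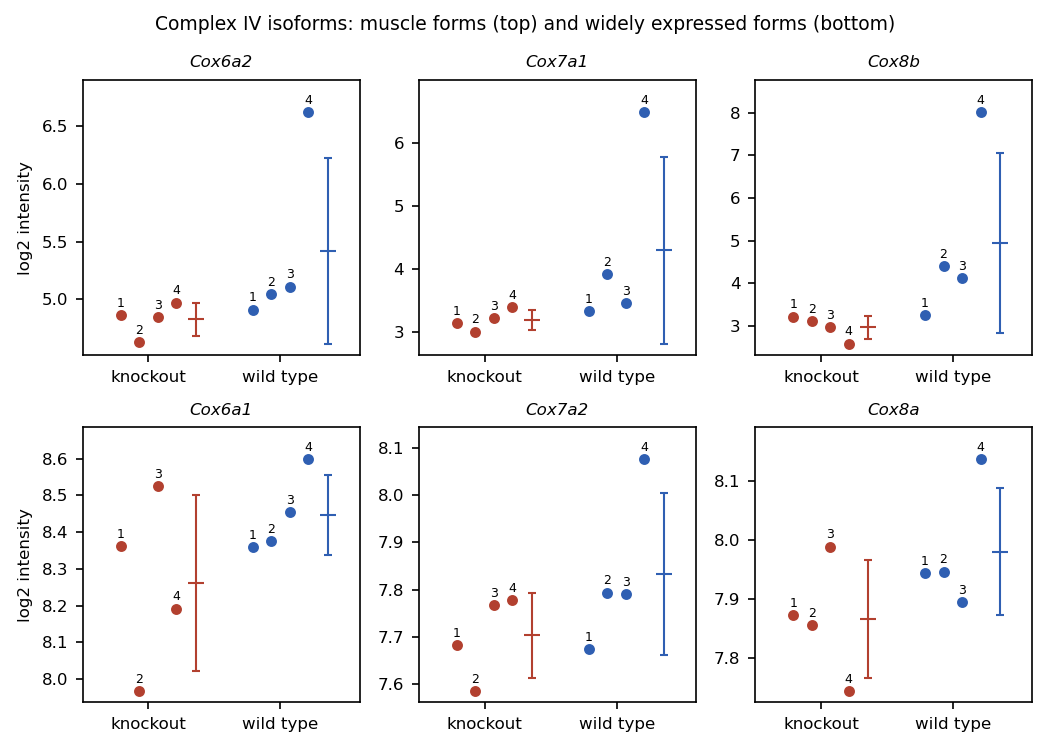
Log2 intensity on each array (y axes differ) of the muscle isoforms Cox6a2, Cox7a1 and Cox8b (top) and of their widely expressed partners Cox6a1, Cox7a2 and Cox8a (bottom); points carry the array number and bars give the mean and SD of 4 arrays. Wild-type array 4 is the highest point in all 6 panels, by 1.61 to 4.10 over the mean of wild-type arrays 1 to 3 in the top row and by 0.20 to 0.32 in the bottom row.

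Of the other complex IV isoforms, Cox6b2, the testis form of subunit 6b, measured 5.46, 5.42, 5.68 and 5.54 in the knockouts, against 5.23, 5.33, 5.21 and 5.02 in wild type. All knockout values were higher, and wild-type array 4 was the lowest. The difference of 0.32 (SE 0.10) missed the threshold (limma adjusted p = 0.0774), and it passed with the filter on dim genes and with array weights. Its widely expressed partner Cox6b1 differed by -0.24 with all arrays and -0.13 without wild-type array 4. Cox7a2l, a factor that joins complexes III and IV, differed by 0.20 and 0.28 in these fits, the accessory subunit Cox7b by -0.33 and -0.19, Cox4i1, the main form of subunit 4, by 0.030 and 0.20, and Cox4i2, its form in lung, by -0.10 and 0.048. None of these passed in either fit. The other probe set gave 0.067 and 0.21 for Cox7a2l, and -0.20 and -0.12 for Cox7b. Cox7b2 lay below the 25th percentile of every array and Cox8c below the median of every array, with differences of -0.052 and -0.26.

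Complex V gave no call with all arrays. Atp5g1, Atp5g2 and Atp5g3 encode the same mature c subunit of the membrane rotor with different import signals. Atp5g3 measured 8.80, 8.86, 8.98 and 8.86 in the knockouts, against 8.46, 8.62, 8.53 and 9.23 in wild type. Wild-type array 4 was above every knockout and the other wild-type arrays below. It differed by 0.16 (limma adjusted p = 0.554) with all arrays and rose by 0.34 (SE 0.10, adjusted p = 0.0495) when wild-type array 4 was left out, but not there after quantile normalization (0.24, adjusted p = 0.18).

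Atp5g2 measured 9.73, 9.76, 9.80 and 9.81 in the knockouts, against 9.65, 9.61, 9.58 and 9.67 in wild type. The groups did not overlap, and the difference of 0.15 did not pass (limma adjusted p = 0.294). Atp5g1 differed by -0.17 (adjusted p = 0.392). Atp5e, the epsilon subunit of the central stalk, had the lowest difference of the complex, with values of 6.54, 6.55, 6.66 and 6.56 in the knockouts, against 6.60, 6.63, 6.79 and 7.85 in wild type. Only wild-type array 4 stood apart. The difference was -0.39 (adjusted p = 0.345) with all arrays and -0.094 without that array. The catalytic beta subunit Atp5b, chosen after its values were seen, differed by 0.040, with 10.54 to 10.62 in the knockouts and 10.47 to 10.66 in wild type.

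Of 36 further assembly factors, Acad9, which helps to build complex I, fell by 0.78 (SE 0.14, limma adjusted p = 0.00963) and Sdhaf1, an assembly factor of complex II, fell by 0.34 (SE 0.086, adjusted p = 0.0373). These are 5.56% of the list, against 2.34% of all genes called lower, and 0 of the list rose. The list's median was -0.074. Of 17 regulators of mitochondrial biogenesis Tfam, which packages and helps transcribe mitochondrial DNA, rose by 0.39 (SE 0.10, adjusted p = 0.0444), which is 5.88% of the list against 6.41% of all genes called higher, with a list median of 0.15. When wild-type array 4 was left out Acad9 (adjusted p = 0.00298) and Tfam (0.0414) passed and Sdhaf1 (0.0551) did not. In that fit 1 of the 36 assembly factors rose and 1 fell (2.78% each), against 6.77% and 3.25% of all genes. Over the 8 fits with 1 array left out the highest adjusted p was 0.0431 for Acad9, 0.0998 for Sdhaf1 and 0.135 for Tfam. The mitochondrially encoded subunits ND3 and COX2, the only ones matched by symbol, differed by 0.015 and -0.10 and did not pass, and wild-type array 4 was not the highest array for either.

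With all arrays 0 genes passed in limma among 17 citric acid cycle genes (median -0.019), 10 carriers and kinases (0.061), 21 protein import genes (0.0038), 77 mitochondrial ribosome genes (-0.00050) and the 3 cytochrome c and c1 genes (-0.016). The counts at an unadjusted p under 0.05 were 2 (11.8%), 2 (20%), 5 (23.8%), 7 (9.09%) and 0, against 25.1% of all genes. The genes with the smallest p were Suclg2 (0.29), Vdac1 (-0.23), Pmpca (0.29), Mrps5 (0.33) and Cyc1 (-0.31). Of 59 cytosolic ribosome genes Rps4l (0.37) and Rpl29 (0.35) rose, which is 3.39% of the list against 6.41% of all genes, with a list median of 0.043. When wild-type array 4 was left out Rps4l passed (adjusted p = 0.0406) and Rpl29 did not (0.0627). Wild-type array 4 was the highest array for 13 of the 17 citric acid cycle genes (76.5%), 35 of the 77 mitochondrial ribosome genes (45.5%) and 21 of the 59 cytosolic ribosome genes (35.6%). When it was left out, 2 citric acid cycle genes (11.8%), 2 carriers or kinases (20%), 1 import gene (4.76%) and 2 mitochondrial ribosome genes (2.6%) rose, against 6.77% of all genes, and 0 fell in these lists, against 3.25%.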

How the data were processed

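Expression was measured on Affymetrix Mouse Gene 1.0 arrays in 4 Adam10 knockout and 4 wild-type skin samples. The authors deposited an intensity for each probe set, computed with RMA per the submitters' processing notes; the sources used here do not give its version, settings or build. The values ran from 0.817 to 11173, too high for log2 values, so they were read as linear and log2 was taken with no pseudocount. Of 35519 probe sets 21780 carried exactly 1 gene symbol in the platform annotation. The probe set with the highest mean was kept per gene, and 17 members had several. The probe sets of 2 of these 17 differed in sign with all arrays, and of 0 without wild-type array 4. All 89 members matched RefSeq genes by Entrez identifier, with symbols unchanged. Arrays give no depth, and their number limits the precision.

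Genotypes were compared with limma 3.58.1 in R 4.3.3 (lmFit and eBayes, two-sided). Benjamini-Hochberg adjustment ran over the 19935 genes, and 0.05 was the threshold. On simulated data of 19935 genes for this comparison, 44% of changes of 0.5 and 88% of changes of 1 (log2) were recovered. There were 6 false calls among 172. These shares hold for the simulated spread and were not measured for the members. The members' median SD was 0.11 over the knockouts and 0.26 over wild type. Named with values are Adam10, members that passed with or without wild-type array 4 (at most 4 per complex and direction, or the smallest p where none passed), tissue isoforms of complexes IV and V, Ndufa4, Ndufa4l2, complex II, and the highest and lowest difference of each complex. From each of 15 other lists up to 2 genes per direction are named, or the one with the smallest p. Members and lists were chosen with earlier results of these data known. The 18 alternatives covered scaling (quantile, median, cyclic loess), a filter on dim genes, averaged probe sets, a trended robust prior, array weights, Y-linked genes or muscle markers as a covariate, and arrays left out. After the data were seen, the 3 scalings without wild-type array 4 were added.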

Additional observations from a re-analysis of the deposited data

Results flagged for a closer look

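In a group of 4 arrays a value was taken to stand apart when its gap to the nearest other value, as a share of the group's range, exceeded Dixon's 95% critical value, which chance gives for about 1 in 20 groups. Among wild-type arrays this held for 18 of the 89 members (20.2%), 17 of them through wild-type array 4, against 7% of all genes, and among knockout arrays for 0 members, against 6.33% of all genes. Of the members named by rule it held in wild type, each time through wild-type array 4, for Sdhb (0.944), Cox4i1 (0.888), Cox6a2 (0.884), Cox7b (0.860), Atp5e (0.844) and Sdha (0.842). It also held there for the median of all members (0.903), of complex I (0.872), complex II (0.854), complex III (0.861) and complex V (0.869). For Adam10 the wild-type value that stood apart was the low one on array 3 (0.831).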

How the results depend on the processing

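The fall of Ndufa4l2 passed in all 21 alternatives. Refits of the 28 members named by rule, which leave out Ndufv1, Ndufs1, Ndufs8 and Atp5b, kept their side of the threshold in 216 cases with 1 array left out and 335 others, passed where the fit of all arrays had not in 5 and 19, and lost the call in 3 and 5, all of Uqcrc1. Genes called (1744 with all arrays) numbered 3621 with array weights, 925 without wild-type arrays 3 and 4, and 587 (without knockout array 2) to 1997 (without wild-type array 4) with 1 array left out. The share called higher was 73.2%, and 56.5% with quantile scaling, 50.8% with cyclic loess and 81.4% with median centring. Members called higher (1 with all arrays) numbered 0 with quantile scaling or cyclic loess, 2 with the filter on dim genes, 3 with muscle markers as a covariate, 4 with array weights, 4 with median centring without wild-type array 4, and 0 to 4 with 1 array left out (0 without knockout array 2, knockout array 3 or wild-type array 3, 4 without wild-type array 4). Of all genes tested, those called higher (1277 with all arrays) numbered 713 with quantile scaling, 674 with cyclic loess and 1835 of 9968 with the filter. They numbered 901 with muscle markers, 2405 of 19935 with array weights, and 1557 with median centring without wild-type array 4. With 1 array left out they ran from 426 to 1417. Members called lower (1 with all arrays) numbered 2 with quantile scaling, cyclic loess, the filter or averaged probe sets, 3 with array weights, 2, 2 and 3 with quantile scaling, median centring and cyclic loess without wild-type array 4, and 1 to 2 with 1 array left out (2 without knockout array 4, wild-type array 1 or wild-type array 4). Of all genes tested, those called lower (467 with all arrays) numbered 549, 653, 511 and 460 in the first 4 of these settings, and 1216 with array weights. Without wild-type array 4 they numbered 805, 566 and 845 under the 3 scalings in the same order. With 1 array left out they ran from 161 to 647. With muscle markers as a covariate the medians were 0.039 for complex I, 0.26 for II, 0.059 for III, -0.012 for IV, 0.085 for V and 0.086 for the assembly factors. Adam10 passed with quantile scaling (-0.49), cyclic loess (-0.52), the filter (-0.36, adjusted p = 0.0306) and the trended prior (-0.36, adjusted p = 0.0487), and without wild-type array 4 with quantile scaling (-0.45) or cyclic loess (-0.47); its adjusted p over the alternatives ran from 0.0229 to 0.15. The causes were not tested. No paired analysis was possible because the labels give the groups no shared replicate numbers. Arrays give no depth, and dim members such as Cox7b2 are limited by background.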
